A study of Mus musculus with 60 samples.

Results

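The sensory transient receptor potential (TRP) and Piezo channel genes examined here are Trpv1, Trpv2, Trpv4, Trpa1, Trpm8, Trpm3, Trpm2, Piezo1 and Piezo2. They are 9 of the 21887 protein-coding genes in the RefSeq table for GRCm38.p6. They were chosen by name, not by a measured value, though with earlier results of these data known. For each gene, every peak that touched the gene body or the 10 kb on either side was taken from 16 deposited peak lists. The tissue was the L4 to L6 dorsal root ganglia of C57BL/6 mice aged 6 to 8 weeks, collected 24 hours after surgery. Each mouse had 1 of 4 operations. SNA is axotomy of the sciatic nerve and Sham its sham operation. DCA is dorsal column axotomy, a cut of the central sensory tracts in the cord, and Lam is laminectomy alone, which opens the vertebral arch. The strain was the same in every group, and the labels name no transgene or drug. Chromatin immunoprecipitation (ChIP-seq) covered the histone marks H3K9ac, H3K27ac and H3K27me3, with 2 samples of 10 pooled mice and 2 inputs for each mark and surgery. ATAC-seq, which finds DNA open to a transposase, had 3 samples of 1 mouse for each surgery. The authors pooled the replicates of each assay and surgery into 1 list, so no value below has a replicate error and no difference between surgeries was tested. Values for the 4 lists of an assay are given in the order Sham, SNA, Lam, DCA unless the list is named.

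Sensory neurons of the dorsal root ganglion detect heat, cold, irritants and touch through ion channels in their endings in skin and deep tissue. Trpv1 is the capsaicin and noxious heat receptor, Trpa1 the receptor for mustard oil and other irritants, Trpm8 the menthol and cold receptor, and Trpm3 a heat receptor that is opened by the steroid pregnenolone sulfate. Trpv4 answers to swelling and warmth and Trpm2 to oxidative stress, while Trpv2 is a vanilloid family member of less settled function. Piezo2 is the main channel for light touch and body position in these neurons, and Piezo1 senses stretch and flow in many cell types. H3K9ac and H3K27ac are found on active promoters and enhancers, whereas H3K27me3 is laid down by the Polycomb system on silent genes. The ganglion also holds satellite glia, Schwann cells and macrophages. A peak list from whole ganglia reports all of them at once, and a mark on fewer cells cannot be told apart from less of the mark in each cell.

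The promoters of the members differed in their density of CpG dinucleotides, and this went along with openness at the start site among all genes. RefSeq promoter entries of GRCm38.p6 were found for 7 of the 9 members, and Trpa1 and Piezo2 were not matched. The 250 bases before the start are printed here for 2 CpG-poor and 2 CpG-rich members, each 5′ to 3′ on the gene's own strand. They are Trpm8 (chr1:88306485-88306734, plus strand), Trpv1 (chr11:73233899-73234148, plus strand), Trpv4 (chr5:114658422-114658671, minus strand) and Piezo1 (chr8:122551330-122551579, minus strand). Capitals mark a GC box (GGGCGG) or a TATA box (TATAAA), both searched on either strand.
Trpm8: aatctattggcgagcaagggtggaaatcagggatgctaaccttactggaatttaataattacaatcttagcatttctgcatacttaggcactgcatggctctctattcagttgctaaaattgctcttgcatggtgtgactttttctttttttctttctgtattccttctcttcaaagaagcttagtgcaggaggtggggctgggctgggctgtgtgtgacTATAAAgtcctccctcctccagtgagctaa
Trpv1: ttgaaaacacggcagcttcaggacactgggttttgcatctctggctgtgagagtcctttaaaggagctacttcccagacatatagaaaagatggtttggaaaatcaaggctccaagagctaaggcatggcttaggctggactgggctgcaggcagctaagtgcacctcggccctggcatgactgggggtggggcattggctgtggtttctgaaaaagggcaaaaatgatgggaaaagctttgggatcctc
Trpv4: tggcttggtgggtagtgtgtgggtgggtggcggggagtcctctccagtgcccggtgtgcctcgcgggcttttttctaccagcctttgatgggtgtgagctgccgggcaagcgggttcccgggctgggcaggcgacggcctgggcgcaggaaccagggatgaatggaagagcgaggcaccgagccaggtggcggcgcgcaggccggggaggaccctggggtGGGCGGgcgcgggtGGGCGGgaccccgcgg
Piezo1: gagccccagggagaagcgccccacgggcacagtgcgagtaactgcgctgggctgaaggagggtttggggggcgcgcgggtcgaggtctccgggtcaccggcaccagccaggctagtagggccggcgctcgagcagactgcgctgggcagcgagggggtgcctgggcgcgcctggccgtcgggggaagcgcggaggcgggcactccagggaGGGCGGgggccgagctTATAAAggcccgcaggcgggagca

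The Trpm8 stretch held 1 CpG and the Trpv1 stretch 2, against 22 for Trpv4 and 26 for Piezo1. As a ratio of observed to expected CpG, these were 0.0877, 0.131, 0.752 and 0.807, beside a median of 0.53 over 21263 RefSeq promoters. The 3 start sites of Trpv2 were also CpG-poor, at 0.114, 0.127 and 0.275. Trpm2 lay near the median at 0.497, and the start sites of Trpm3 were at 0.617 for the upstream one and 0.411 for the downstream one. A GC box was found before Piezo1 and Trpm2 once and before Trpv4 at 2 places, and 42.6% of all promoters held one. The TATA box letters were found before Trpm8, Piezo1 and Trpm2, and in 11.6% of all promoters. Neither the cAMP response element TGACGTCA (1.92% of all promoters) nor the AP-1 site TGANTCA (6.13%) was found before any of the 7 genes, which says only that these letters are not in these windows. Among all promoters cut into 3 equal classes by CpG ratio, the share with ATAC peaks within 1 kb was 29.2% to 32.7% in the poorest class, depending on the surgery, and 96.4% to 97.1% in the richest. For H3K9ac these shares were 12.9% to 19.6% and 78.5% to 92.1%. The members did not divide in this way. CpG-rich Trpv4 and Piezo1 had an ATAC peak within 1 kb of the start in all 4 lists, and so did CpG-poor Trpv2. Trpv2 was also the only member with H3K9ac there in all 4 lists. CpG-poor Trpv1 had such an ATAC peak in Sham, Lam and DCA, and CpG-poor Trpm8 in Sham, SNA and Lam.

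**Figure D1:**
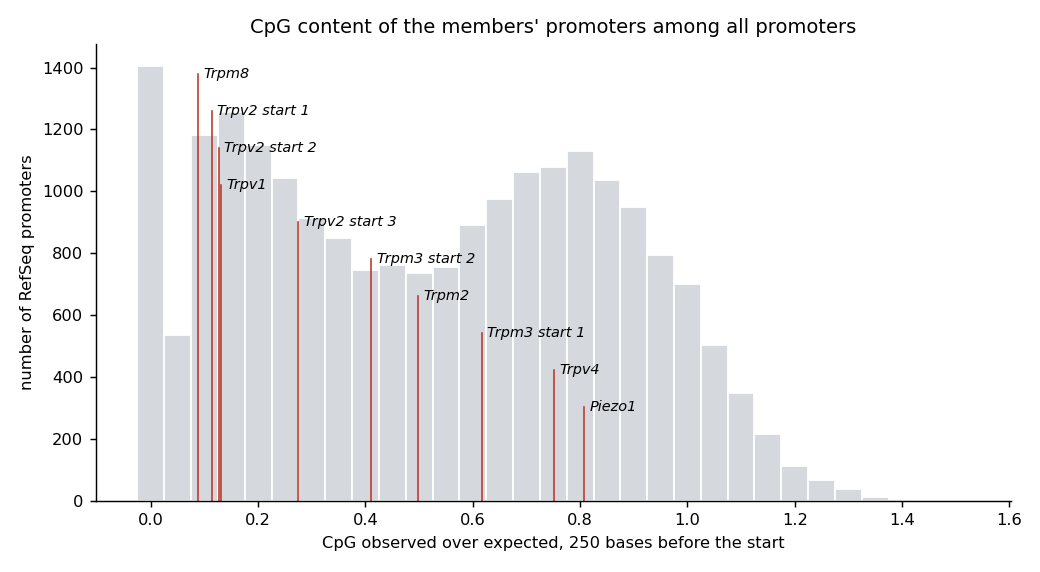
Histogram of the observed over expected CpG ratio in the 250 bases before 21263 RefSeq promoters (horizontal axis, no unit; vertical axis, number of promoters), with red lines at the start sites of the 7 members that had an entry. Trpm8, Trpv1 and the Trpv2 start sites fall in the CpG-poor mode, whereas Trpv4 and Piezo1 fall in the CpG-rich mode; line heights only separate the labels.

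The lists differed in ways that bear on every comparison. They held 50332 to 89647 H3K9ac peaks, 43803 to 75824 H3K27ac peaks, 90011 to 154055 H3K27me3 peaks and 153556 to 174605 ATAC peaks. Peak lists carry no read totals. The background pile-up recovered from the peaks is in reads multiplied by a scale factor fitted to each list. It was 1.68, 2.08, 3.04 and 5.20 for H3K9ac, 2.91, 2.34, 3.08 and 2.11 for H3K27ac, and 16.19 to 18.38 for ATAC. The H3K9ac scale factors were 0.31535, 0.4001, 0.6106 and 0.9179, and so rose in the same order as the pile-up. The H3K9ac pile-up therefore does not show which of these lists was deepest. The H3K27ac factor was 0.7591 in SNA and 1.0 elsewhere, and the ATAC factor was 1.0 throughout. The pile-up was not recovered for H3K27me3. The H3K27ac lists also differed in kind. Of the 5000 strongest peaks of each list, those that met an ATAC peak made up 22.1% in Sham, 35.7% in DCA, 58.5% in Lam and 88.3% in SNA. The tissue was checked against 10 markers of each cell type. Of the sensory neuron markers, 9 to 10 had an ATAC peak within 1 kb of the start, but only 1 to 3 had an H3K9ac peak there and 2 to 3 an H3K27ac peak. Of the satellite glia and Schwann cell markers, 8 to 9 had an H3K9ac peak at the start, 6 to 10 an H3K27ac peak and 8 to 9 an ATAC peak. The macrophage markers had 1 to 2, 0 to 1 and 3 to 4, and genes of liver, muscle and epidermis had 0, 0 and 2 to 4. Among these marker lists, acetylation at start sites was thus commonest at the glial genes. H3K27me3 was called at the start of 6, 5, 8 and 1 of the sensory neuron markers and 2, 2, 5 and 0 of the glial ones. For the macrophage markers it was 2, 3, 5 and 1, and for the genes of liver, muscle and epidermis 7, 4, 7 and 2. How far the mixture of cells enters the values below was not tested.

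The H3K27me3 calls were weak in fold enrichment, at these genes and over the whole lists alike. None of the 74, 70, 107 and 48 peaks in the member windows had a q of 0.05 or less as the authors' caller gave it. The median fold enrichment of these peaks was 1.14 to 1.16, beside 1.11 to 1.19 over the whole H3K27me3 lists. For the acetyl marks the member peaks had medians of 3.11 to 3.94. H3K27me3 values below are therefore descriptions of weak calls.

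All members had ATAC peaks in every list, while acetyl peaks were unevenly spread among them (the plot of peak density). The median ATAC density of the members was 17.4, 19.5, 19.5 and 19.1 peaks per 100 kb of window, and over all genes it was 9.17, 10.9, 9.69 and 10.0. Summed over their windows the members were closer to the other genes, at 9.86 to 11.7 peaks per 100 kb against 8.83 to 10.3, because the 878 kb window of Trpm3 was sparse. Trpa1 had no H3K9ac or H3K27ac peak in any of the 8 lists. Trpm8 had 1 H3K9ac peak in DCA and none in the other lists, and 2, 1, 1 and 0 H3K27ac peaks. The H3K27me3 density of Trpm8, at 12.7, 13.7, 18.6 and 11.8 peaks per 100 kb, was higher than that of 89.5% to 93.5% of all genes. H3K9ac density was highest at Trpv4 in Sham and DCA, at Trpv1 in SNA and at Piezo1 in Lam. Trpv4 had 16, 19.5, 5.33 and 21.3 peaks per 100 kb and Piezo1 10, 20.1, 8.93 and 20.1, and Trpv1 6.36, 23.3, 6.36 and 17.

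**Figure D2:**
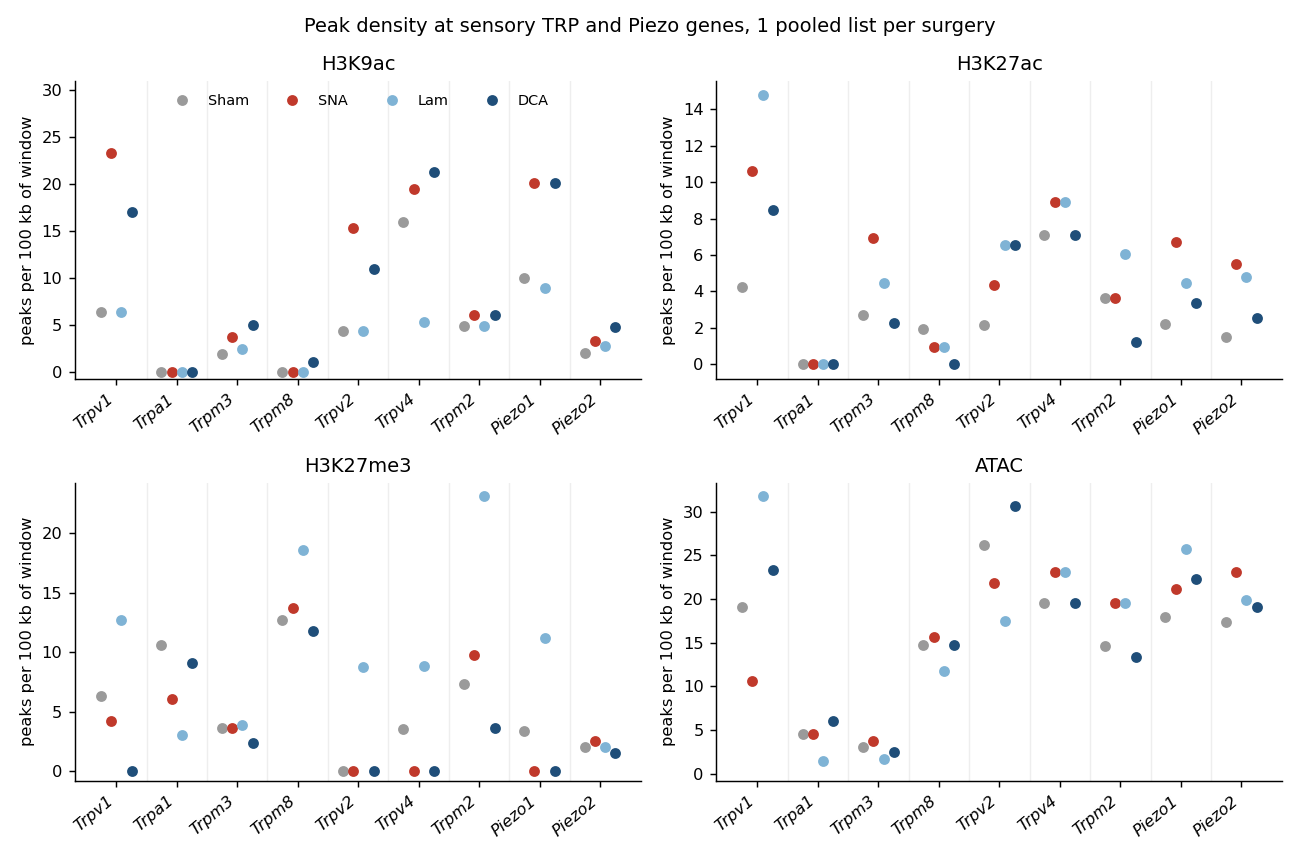
Peaks per 100 kb of window (gene body and 10 kb on either side) for the 9 members in the 4 assays; each point is 1 pooled list, coloured by surgery, so there are no error bars. Trpa1 sits at 0 for both acetyl marks, Trpm3 is low for ATAC, and the SNA and DCA points lie above the Sham and Lam points for H3K9ac at Trpv1, Trpm3, Trpv2, Trpv4, Trpm2, Piezo1 and Piezo2.

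At the start sites, the members fell into genes open in every list and genes that were not. A start peak is one within 1 kb of a start site. H3K9ac start peaks were found at 6, 4, 3 and 6 of the 9 members, beside 50.1%, 51.4%, 51.1% and 59.9% of all genes. H3K27ac ones were found at 0, 4, 4 and 4, beside 40.4%, 51.6%, 51.3% and 43.3%. H3K27me3 ones were found at 3, 3, 5 and 3, beside 22.2%, 16.9%, 25.1% and 8.46%, and ATAC ones at 7, 8, 8 and 7, beside 68.8%, 70.7%, 69% and 70.1%. The Sham H3K27ac list thus had no start peak at any member. ATAC start peaks were in all 4 lists for 5 members, Trpv2, Trpv4, Trpm2, Piezo1 and Piezo2, beside 62.1% of all genes. Trpm3, Trpm8 and Trpv1 had one in 3 lists each and Trpa1 in 1. An H3K9ac peak was at the start in all 4 lists for 1 member, Trpv2, beside 43.2% of all genes. For H3K27ac no member had one in all 4 lists, beside 32.7% of all genes. For H3K27me3 it was 2 members, Trpa1 and Trpm8, beside 3.4% of all genes. Trpa1 and Trpm8 had no acetyl peak at the start in any list. The same held for the neuron marker Isl1 and for Myh4 and Cyp3a11, from the list of liver, muscle and epidermis genes. Each of them had H3K27me3 at the start in all 4 lists and an acetyl peak there in none. Trpm3 and Trpm2 had H3K9ac there in some lists and H3K27ac in none. For Trpa1 and Piezo2, whose strand the table did not give, a peak near either gene end was counted.

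**Figure D3:**
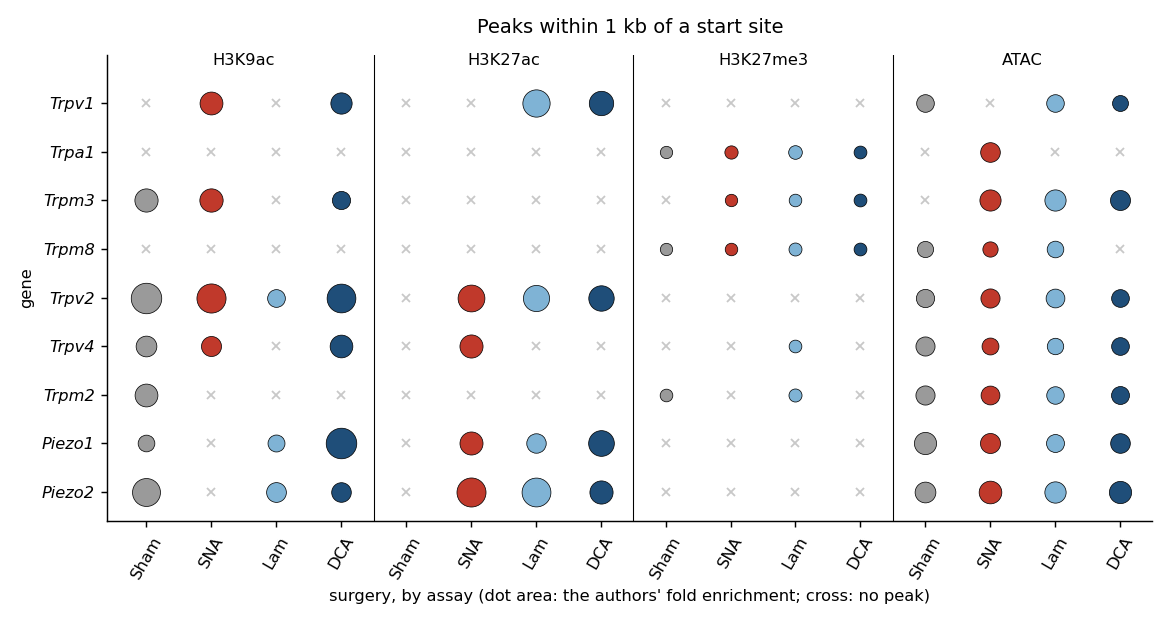
Peaks within 1 kb of a start site of each member (rows) in the 16 lists (columns, grouped by assay); dot area is the authors' fold enrichment of the peak with the highest −log10 p, and a cross marks a list with no peak. The ATAC block is full for the lower 5 rows, the Trpa1 and Trpm8 rows are empty for both acetyl marks, and no member has an H3K27ac dot in Sham.

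Trpv1, the capsaicin receptor gene, spans chr11:73234149-73261322 on the plus strand and had 9, 5, 15 and 11 ATAC peaks. It had 3, 11, 3 and 8 H3K9ac peaks and 2, 5, 7 and 4 H3K27ac peaks. SNA was thus the lowest list for ATAC and the highest for H3K9ac. The start site had an ATAC peak in Sham, Lam and DCA, with fold enrichments of 2.12, 2.11 and 1.73 over the caller's background, and none in SNA. The same place had H3K27ac in Lam and DCA, at 5.07 and 4.05, and H3K9ac in SNA and DCA, at 3.57 and 3.09. The SNA peak lay 785 bp from the start, and the DCA peak covered it. Of the 3 H3K9ac regions in all lists 2 lay inside the gene, and the other 10.3 kb before it. The nearest to the start at chr11:73235815-73238014, about 2.77 kb past it, had folds of 4.8, 3.75, 2.57 and 4.19. The H3K27ac region at chr11:73235206-73238264 overlapped it and had folds of 3.6, 6.02, 4.93 and 4. The window also reaches the neighbours Shpk and Trpv3, the latter a warmth receptor gene of keratinocytes. Of the 11 H3K9ac peaks in SNA 2 lay within 1 kb of a neighbour's end, and none did in the other H3K9ac lists.

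Trpa1, the irritant receptor gene at chr1:14872644-14918862, had 3, 3, 1 and 4 ATAC peaks and 7, 4, 2 and 6 H3K27me3 peaks. Its ATAC density was lower than that of most genes, above only 18.0% to 35.3% of them. The strongest ATAC peak was at the upper gene end, chr1:14918631-14919019, in SNA alone, with a fold of 2.63 and a −log10 p of 9.01. Of the SNA list's peaks, 12.9% ranked as high or higher. None of the 8 merged ATAC regions of Trpa1 was in all 4 lists. H3K27me3 was called within 1 kb of that end in all 4 lists, at folds of 1.04, 1.2, 1.27 and 1.12.

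Trpm3 is the longest member, 858 kb at chr19:22137797-22995410 on the plus strand. It had 27, 33, 15 and 22 ATAC peaks, or 3.08, 3.76, 1.71 and 2.51 per 100 kb. Among the 990 genes of 200 kb or more, 13.4% to 32.1% had a lower ATAC density, so Trpm3 was sparse even for a long gene. Its acetylation was not sparse. It had 16, 32, 21 and 44 H3K9ac peaks and 24, 61, 39 and 20 H3K27ac peaks, and 72.6% to 75.7% of the long genes had a lower H3K9ac density and 74.0% to 82.6% a lower H3K27ac density. These peaks lay toward the far end of the gene. With the gene cut into 3 equal segments, no acetyl peak of any list fell in the first segment, and 10, 25, 14 and 35 H3K9ac and 19, 50, 33 and 15 H3K27ac peaks fell in the last. The strongest ATAC peak, at chr19:22916257-22917535, was in all 4 lists with folds of 4.36, 3.53, 4.36 and 4.05. It lies 469 kb past the downstream start site and overlapped H3K27ac in all 4 lists. A place 513 kb past that start, chr19:22960307-22961239, had ATAC, H3K9ac and H3K27ac peaks in all 4 lists. Both start sites had an ATAC peak in SNA, Lam and DCA and none in Sham. The folds were 3.06, 3.07 and 2.73 at the upstream start, chr19:22139046, and 2.41, 1.81 and 2.43 at the downstream start, chr19:22448208. H3K9ac was listed at the downstream start only, in Sham, SNA and DCA, at 3.67, 3.7 and 2.26.

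Trpm8, the menthol receptor gene at chr1:88306735-88388853 on the plus strand, had 15, 16, 12 and 15 ATAC peaks. Of its 27 merged ATAC regions 7 were in all 4 lists, 25.9% (Wilson 95% interval 13.2% to 44.7%), beside 12.2% over all genes. Each of these 7 regions overlapped an H3K27me3 call in all 4 lists and no acetyl peak in any. Of the 7, 6 lay between chr1:88295831 and chr1:88310859, on both sides of the start. A single H3K27me3 call lay across the start. It was 16.4, 16.6 and 16.4 kb wide in Sham, SNA and Lam and 6.91 kb in DCA, wider than 99.6% to 99.9% of each list, with folds of 1.04, 1.07, 1.15 and 1.12. The ATAC background was raised over this stretch too. The background pile-up recovered at the 7 to 8 ATAC peaks that lay upstream or up to 5 kb past the start had a median of 71.3, 80.9, 67.6 and 69.3 reads, against 16.2, 17.9, 18.6 and 18.5 at the peaks further along the gene and 16.19 to 18.38 over the lists. Of 3000 peaks sampled from each list, 0, 0, 0 and 1 had a background as high. The pile-up of those peaks was 118 to 140 reads at the median, and the 6 regions had folds of 1.45 to 2.47. Input coverage and copy number at this stretch were not analysed here, and their part in the raised background, the ATAC peaks and the broad call was not tested.

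Trpv2, at chr11:62574486-62600305 on the plus strand, had 12, 10, 8 and 14 ATAC peaks and was the member with H3K9ac at the start in all lists. That peak, at chr11:62575268-62576881, had folds of 6.33, 5.78, 2.14 and 5.63, so it was weakest in Lam. An ATAC region at chr11:62575177-62577133 overlapped it in all 4 lists with folds of 2.28, 2.5, 2.4 and 2.14. H3K27ac was there in SNA, Lam and DCA, at 4.9, 4.66 and 4.4, and not in Sham. The strongest ATAC peak of the window lay past the end of the gene, at chr11:62602538-62603660, about 2 kb from the end of Lrrc75a. Its folds were 4.4, 4.16, 3.63 and 3.69, and it had H3K9ac and H3K27ac in all 4 lists. H3K27ac there had folds of 5.82, 2.02, 5.46 and 3.74.

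Trpv4, the swelling-sensitive channel gene at chr5:114622152-114658435 on the minus strand, carried the H3K27ac peak with the highest −log10 p of any member in Sham, Lam and DCA. It lay inside the gene at chr5:114646530-114648065, 11.1 kb from the start, with folds of 7.19, 2.69, 10.3 and 13.5. Its −log10 p was 27.8, 4.84, 31.9 and 38.4, and it ranked in the top 7.04% of the Sham list, 2.1% of Lam and 1.45% of DCA. The SNA value was the low one. H3K9ac at chr5:114647315-114648208 overlapped it, with folds of 3.44, 4.61, 3.26 and 3.86 and a −log10 p of 4.19, 7.73, 5.58 and 9.58. The fold was highest in SNA and the −log10 p in DCA. An ATAC peak was there in 1 list. Of the 5000 strongest H3K27ac peaks, those with an overlapping SNA peak made up 18.2% in Sham, 58.1% in Lam and 33% in DCA. At the Trpv4 start an ATAC region, chr5:114657983-114658989, was in all 4 lists at 2.49, 1.95, 1.84 and 2.14. H3K9ac was there in Sham, SNA and DCA, at 2.93, 2.73 and 3.51.

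Trpm2, at chr10:77907722-77969909 on the minus strand, had 12, 16, 16 and 11 ATAC peaks. An ATAC region at its start, chr10:77969345-77970077, was in all 4 lists with folds of 2.5, 2.42, 2.09 and 2.19. The start had H3K9ac in Sham alone, at 3.55. Most acetyl peaks in this window lay near other genes. Of the 4, 5, 4 and 5 H3K9ac peaks, 2, 4, 4 and 4 lay within 1 kb of an end of the neighbours Lrrc3 or Cfap410, and of the 3, 3, 5 and 1 H3K27ac peaks it was 3, 2, 4 and 0. The strongest ATAC peak of the window, chr10:77977995-77979234, lay at the Cfap410 end and had folds of 4.41, 5.06, 4.77 and 5.59. Gene body acetylation of Trpm2 was 1 H3K9ac peak in Sham and 1 H3K27ac peak each in Lam and DCA.

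Piezo1, at chr8:122481698-122551329 on the minus strand, had 16, 19, 23 and 20 ATAC peaks. Its start region, chr8:122550650-122552038, was open in all 4 lists with folds of 3.35, 2.73, 2.19 and 2.63. H3K9ac at the start was strong in DCA, at a fold of 6.36 and a −log10 p of 24.9, weak in Sham and Lam, at 1.9 and 1.96, and not listed in SNA. H3K27ac at the start was in SNA, Lam and DCA at 3.62, 2.58 and 4.5. The H3K9ac peaks numbered 9, 18, 8 and 18, the same after both injuries. Of these, 7, 16, 5 and 14 touched the gene body. A gene body region at chr8:122522863-122525062 had H3K9ac in all 4 lists, with folds of 4.61, 5, 3.83 and 3.75. Another ATAC region of the window, at chr8:122474932-122476662, with folds of 2.52, 3.24, 2.86 and 2.8, lay at the ends of the neighbours Ctu2 and Rnf166.

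Piezo2, the touch channel gene at chr18:63010213-63387716, was dense in ATAC peaks along its whole length. It had 69, 92, 79 and 76, or 17.4, 23.1, 19.9 and 19.1 per 100 kb. Among the 990 genes of 200 kb or more the median was 6.01, 6.52, 5.41 and 6.23, and Piezo2 ranked 32, 14, 41 and 32 from the top. Its acetylation was less exceptional, since 72.1% to 77.0% of these long genes had a lower H3K9ac density and 65.9% to 79.4% a lower H3K27ac density. The assays also differed in place. With the gene cut into 3 equal segments, the ATAC peaks of Sham numbered 30, 19 and 20 from the lower to the upper coordinate, and those of SNA 35, 27 and 30. The H3K9ac peaks of SNA numbered 0, 1 and 12, and the H3K27ac peaks 0, 2 and 20. Of its ATAC peaks, 2.9%, 6.52%, 3.8% and 14.5% overlapped H3K9ac in the matching list, beside 18.3%, 21.0%, 16.3% and 26.0% over all genes. For H3K27ac the shares were 4.35%, 8.7%, 7.59% and 3.95%, beside 13.8%, 18.7%, 19.4% and 13.8%. Of the 16 ATAC regions of Piezo2 in all 4 lists, 13 overlapped neither acetyl mark in any list. The strongest ATAC region, chr18:63385830-63387428, is near the upper gene end and had folds of 2.94, 3.5, 3.09 and 3.36. It had H3K9ac in all 4 lists and H3K27ac in 3.

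**Figure D4:**
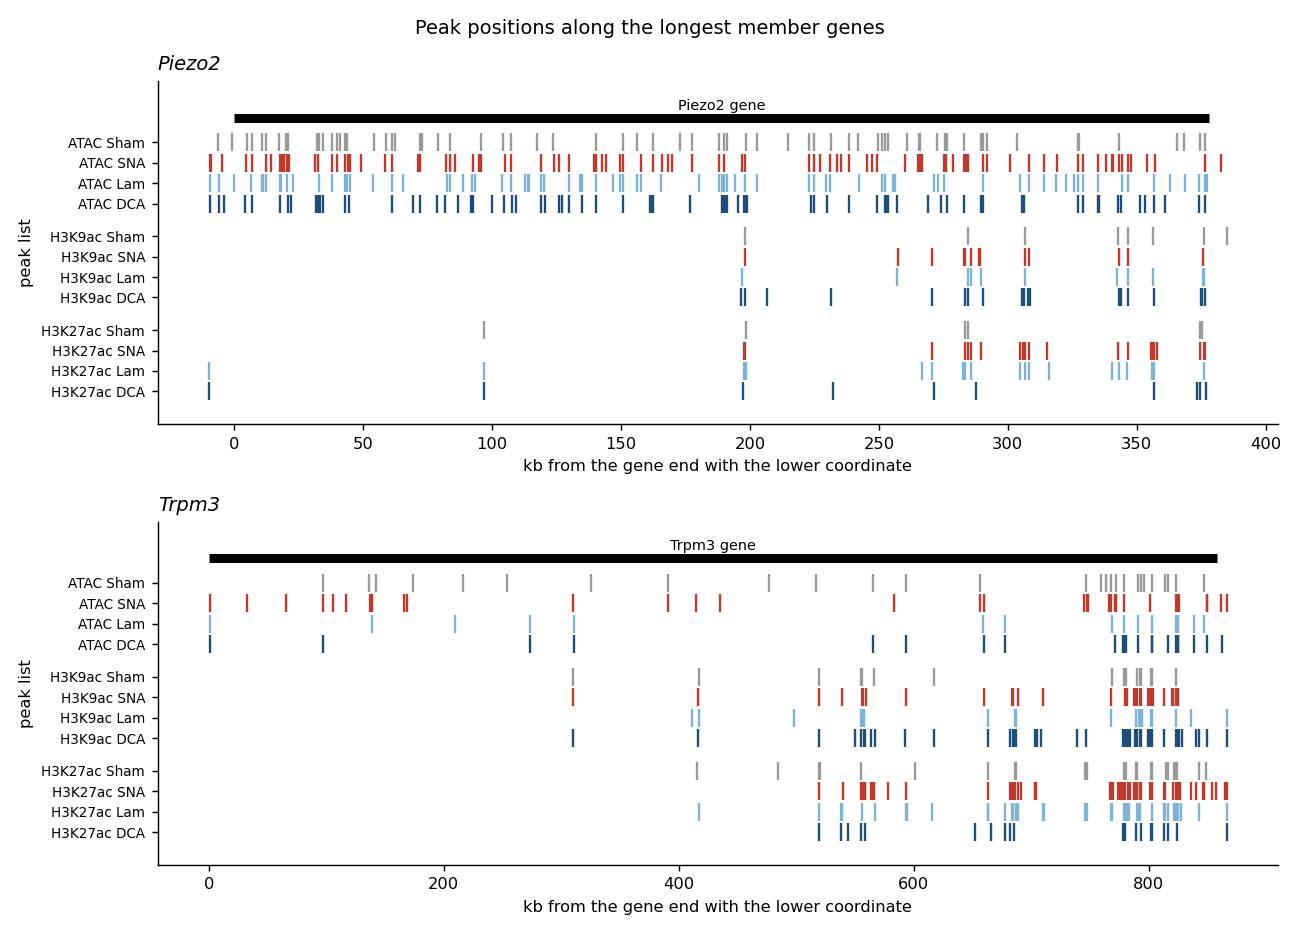
Midpoints of the peaks along Piezo2 and Trpm3 (horizontal axis, kb from the gene end with the lower coordinate) in the ATAC, H3K9ac and H3K27ac lists of each surgery; each tick is 1 peak and the black bar is the gene. ATAC ticks cover all of Piezo2 while its acetyl ticks gather at the right, and in Trpm3 the left segment has ATAC ticks and no acetyl tick.

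After sciatic axotomy the members held more acetyl peaks than after the sham operation, and so did all genes. The H3K9ac peaks in the member windows numbered 97 after SNA against 51, a log2 ratio of 0.93 (95% interval 0.42 to 1.45), beside 0.5 over all genes. The interval is exact (Clopper-Pearson) and covers counting error only, here and below. A gene was called higher or lower when the lists differed by at least 2 peaks and 1.5 times. Of the 9 members 5 were called higher in SNA, Trpv1, Trpm3, Trpv2, Piezo1 and Piezo2, beside 19.4% of all genes, and none lower, beside 1.95%. The Trpv2 call, 7 against 2, came from the flanks, since 1 peak touched the gene body in each list. Of the 7 SNA peaks, 2 lay within 1 kb of a neighbour's end. Among genes with at least 5 peaks in the 2 lists together, as 7 members had, the share called higher was 39.9%. H3K27ac peaks numbered 105 against 44, a log2 ratio of 1.25 (0.73 to 1.8), beside 0.78. Here 4 members were called higher, Trpv1, Trpm3, Piezo1 and Piezo2, beside 27% of all genes and 53.5% of those with 5 peaks, and none lower, beside 3.86%. The Trpm3 count of 61 against 24 made up most of this difference in number. Without Trpm3 the peaks numbered 44 against 20, and the log2 ratio was 1.14 (0.34 to 1.98). H3K27me3 peaks numbered 74 and 70, and 3 members, Trpa1, Trpv4 and Piezo1, were called lower, beside 15.7% of all genes, and none higher, beside 15.2%. ATAC peaks numbered 174 and 207, a log2 ratio of 0.25 (−0.05 to 0.55), beside 0.22. Trpv1, with 5 peaks against 9, was called lower, beside 7.46% of all genes, and no member was called higher, beside 20.3%.

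After the dorsal column axotomy H3K9ac peaks were again more numerous than in the laminectomy list, and H3K27ac and H3K27me3 peaks were fewer. H3K9ac peaks numbered 52 in Lam and 112 in DCA, a log2 ratio of 1.11 (0.62 to 1.61), beside 0.75 over all genes. The same 5 genes as after sciatic axotomy and Trpv4, with 12 against 3, were called higher, 6 in all, beside 30% of all genes and 55.3% of those with 5 peaks, and none lower, beside 2.05%. H3K27ac peaks numbered 83 and 45, a log2 ratio of −0.88 (−1.44 to −0.34), beside −0.48. Trpv1, Trpm3, Trpm2 and Piezo2 were called lower, 4 in all, beside 18.7% of all genes and 37.8% of those with 5 peaks, and none higher, beside 2.62%. The Trpm2 call, 1 against 5, came from outside the gene, since 1 peak touched the gene body in each list. Of the 5 Lam peaks, 4 lay within 1 kb of a neighbour's end. H3K27me3 peaks numbered 107 and 48, a log2 ratio of −1.16 (−1.68 to −0.65), beside −1.11. Of the members 7 were called lower, beside 41.8% of all genes and 64.7% of those with 5 peaks, and Trpa1 alone was higher, with 6 against 2, beside 3.44%. ATAC peaks numbered 182 and 184, and the ratio of 0.02 had an interval from −0.29 to 0.32. Trpa1, with 4 against 1, and Trpv2, with 14 against 8, were called higher, beside 12.7% of all genes, and none lower, beside 11.6%.

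The control surgeries also differed from each other at these genes. H3K27ac peaks numbered 44 in Sham and 83 in Lam, a log2 ratio of 0.92 (0.37 to 1.48), beside 0.62 over all genes. Trpv1, Trpm3, Trpv2, Trpm2, Piezo1 and Piezo2 were called higher in Lam, 6 in all, beside 22.2% of all genes and 46.2% of those with 5 peaks, and none lower, beside 2.5%. At Trpm2, 4 of the 5 Lam peaks and all 3 Sham peaks lay within 1 kb of a neighbour's end. H3K9ac peaks were equal within counting error, at 51 and 52, and Trpv4, with 9 against 3, was called lower in Lam, beside 9.43% of all genes, and none higher, beside 9.59%. H3K27me3 peaks numbered 74 and 107, a ratio of 0.53 (0.09 to 0.98). Of the members 5 were called higher, beside 27.1% of all genes and 42.7% of those with 5 peaks, and Trpa1 lower, beside 7.99%. The ATAC ratio was 0.06 (−0.24 to 0.37), with Trpv1 called higher, beside 16.9%, and Trpa1, Trpm3 and Trpv2 lower, 3 in all, beside 10.4%. Over the 12 comparisons the ratio of all genes lay inside the members' interval in 12, and 7 of the intervals excluded 0. For H3K9ac, DCA had the most peaks, the highest scaled background pile-up and the largest scale factor. With each assay cut to its smallest list by −log10 p, the SNA to Sham ratio became 0.19 for H3K9ac and 0.27 for H3K27ac, and the DCA to Lam ratio −0.03 and −0.28. For H3K27me3 the DCA to Lam ratio became 0.06 and the Lam to Sham ratio −0.28, so both changed sign, and the Lam to Sham ratio of H3K27ac became 0.21. The injury calls were also made under 7 other settings, which were 3 windows, 2 q limits, equal list sizes and peak midpoints. The H3K27ac calls of Trpv1 and Piezo2 after SNA and the H3K9ac call of Trpv4 after DCA were made in all 7, and the other calls in 3 to 6. In 1 setting each, 3 genes were called the opposite way. With equal list sizes Piezo2 had 6 H3K9ac peaks in DCA against 11 in Lam, and Trpm8 had 12 H3K27me3 peaks in DCA against 7. With a −log10 q of 5 or more Piezo1 had 0 H3K27ac peaks in SNA against 2 in Sham. The larger count also changed sides, too little for a call, at Piezo1 for H3K9ac (7 in DCA against 8), Trpm3 for H3K27me3 (21 against 17) and Piezo2 for H3K27ac (10 against 9) with equal list sizes. With that q limit the same held for ATAC at Trpv1 (1 in SNA against 0) and Trpv2 (2 in DCA against 3). The part of list size and depth in the remaining values was not tested.

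**Figure D5:**
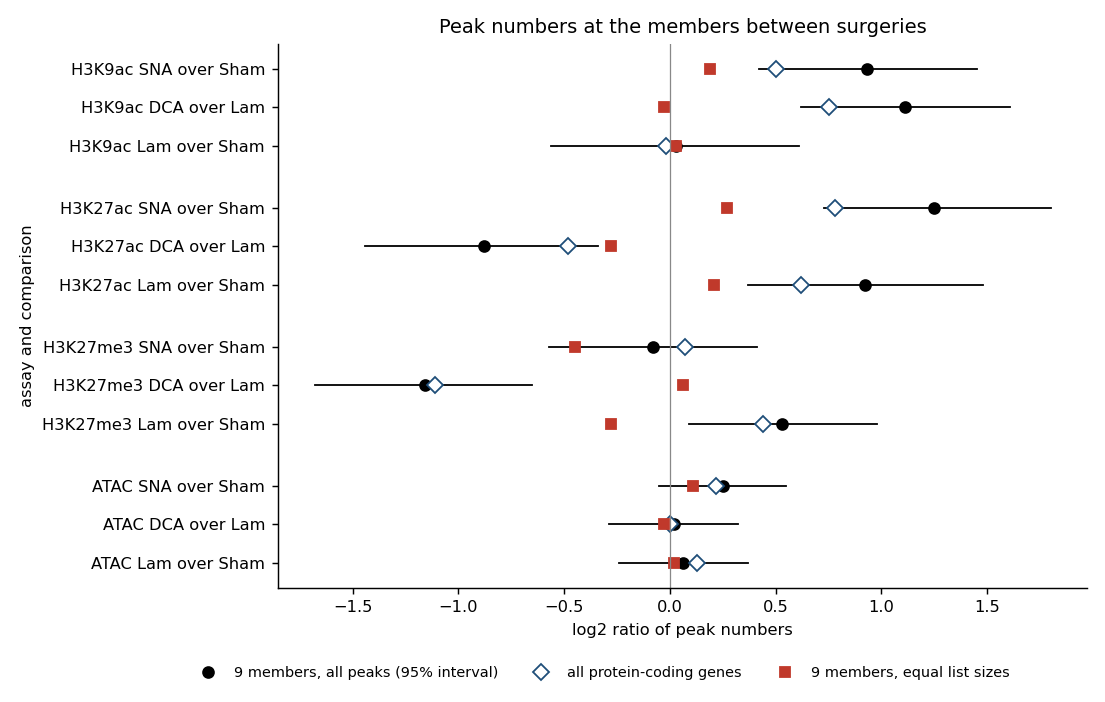
Log2 ratio of the number of peaks in the 9 member windows between surgeries (horizontal axis) for each assay and comparison (rows), with exact 95% intervals that cover counting error only. Black points are all deposited peaks, open diamonds all protein-coding genes and red squares the members with lists cut to equal size; the diamonds lie within every bar, and the squares lie closer to 0 than the points for the acetyl marks after injury.

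A minority of single places was found in every list. Merging the 4 lists of an assay gave 147 H3K9ac regions in the member windows, of which 23 were in all 4 lists (15.6%, Wilson 95% interval 10.7% to 22.4%), beside 19.9% over all genes. For H3K27ac it was 7.48% (4.23% to 12.9%) of 147 regions, beside 14.7%. These intervals treat regions as independent, though 77 of the 147 H3K27ac regions lay in Trpm3 and 31 in Piezo2. The difference from all genes was not tested. For H3K27me3 it was 2.79% (1.29% to 5.95%) of 215, beside 3.95%, and for ATAC 11.3% (8.49% to 14.8%) of 391, beside 12.2%. Of the 11 H3K27ac regions in all lists 7 were in Trpm3, and 1 each in Trpv1, Trpv2, Trpv4 and Piezo2. Of the 44 ATAC regions in all lists 25 overlapped neither acetyl mark in any list, 56.8% (42.2% to 70.3%), beside 35.6% over all genes. Trpm8 held 7 of those 25, all of its regions in every list, and most of them lay in the stretch of raised ATAC background. Piezo2 held 13, out of 16 in every list. The other members held 0 to 2 each, so the higher share rests on 2 genes. This interval too treats regions as independent, and the difference was not tested. Regions found in SNA and DCA but in neither control made up 10.9% of the H3K9ac regions, beside 8.5% over all genes, and 3.07% of the ATAC regions, beside 4.35%. The H3K9ac regions of this kind numbered 16, with 5 in Piezo1, 4 in Trpm3 and 3 in Piezo2.

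Related channel genes were read the same way. The 21 other TRP genes had 54 H3K9ac peaks in SNA and 50 in Sham, with 3 called higher and 1 lower, and 65 in DCA and 36 in Lam, with 7 called higher. Their H3K27ac peaks numbered 56 in SNA and 48 in Sham, and 34 in DCA and 58 in Lam. The 20 other mechanosensory and TRP partner genes had 80 H3K9ac peaks in SNA and 51 in Sham, with 6 called higher. In DCA they had 94 against 51 in Lam, with 10 called higher. Their H3K27ac peaks numbered 73 in SNA and 61 in Sham, and 72 in DCA and 78 in Lam. Over all genes, the H3K9ac shares were 19.4% called higher in SNA, 1.95% lower in SNA and 30% higher in DCA. Genes of these lists called the same way in at least 2 assays are named here, and such double calls were common among all genes. The share was 21% for higher in SNA, 2.87% for lower in SNA, 5.83% for higher in DCA and 16.7% for lower in DCA. Among the other TRP genes 5 were of the first kind, 0 of the second, 1 of the third and 7 of the fourth, and among the mechanosensory and partner genes 5, 0, 3 and 1. Tmem100, a TRPA1 and TRPV1 adaptor gene, had 4 H3K9ac peaks in SNA against 2, 3 H3K27ac peaks against 0 and 6 peaks of the silencing mark H3K27me3 against 4. Anxa2 and Kcnk4 were called higher in SNA for both acetyl marks, and Mcoln3 and Pkd2 for H3K27ac and ATAC, while Pkd2 was called lower for H3K9ac, with 2 against 4, and Anxa2 for H3K27me3, with 2 against 5. For Trpc7, Trpm5, Trpv3, Kcnk2 and Tmem150c the call for an acetyl mark came with one for H3K27me3, and Trpm5 had fewer ATAC peaks, 1 against 8. Trpv3 adjoins Trpv1, and their windows share peaks. In DCA, Akap5 and Stoml3 were called higher for H3K9ac and ATAC, Tmem63a for both acetyl marks and Pkd2l2 for H3K27ac and H3K27me3, while Akap5 was lower for H3K27me3. Pkd2l1 was called lower in DCA for H3K27ac, H3K27me3 and ATAC and higher for H3K9ac, with 7 against 3. Pkd2, Trpc2, Trpv3 and Kcnk2 were lower for H3K27ac and H3K27me3, and Mcoln2, Mcoln3 and Trpm5 for H3K27me3 and ATAC. Of these, Mcoln2, Mcoln3, Trpc2, Trpv3 and Kcnk2 were called higher for H3K9ac, with 2 against 0, 3 against 0, 4 against 2, 13 against 7 and 3 against 1.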

How the data were processed

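The authors sequenced ChIP and ATAC libraries and deposited 1 peak list per assay and surgery, with replicates pooled, per the labels. The build is mm10, per the submitters' processing notes. The aligner, peak caller and its settings are not given in the sources used here. The files hold fold enrichment, a linear ratio over background, and −log10 p-values and q-values, as the authors deposited them. A deposited display score and a summit position in bases were not used as measurements. These values hold within a list, and served only to describe, rank and filter peaks and to recover background. An ATAC interval deposited with several summits was counted once, at its best −log10 p.

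Peaks were assigned to genes of the RefSeq table for GRCm38.p6 with Python 3.11.15, pandas 2.3.3 and scipy 1.17.1. At least 1 bp had to overlap the gene body or the 10 kb on either side. Start sites came from RefSeq promoter entries, held by 17492 genes, and otherwise from both gene ends. Background pile-up came from the fold, read as (pile-up + 1)/(background + 1), and a Poisson p within 0.003, which matched 93.6% to 100% of 2000 peaks in each narrow list. A scale factor fitted to each list turned whole reads into pile-up. The counting and this recovery were tested on simulated data. SNA was compared with Sham, DCA with Lam, and Lam with Sham as the control background. With 1 list a group there was no test. Genes and lists were chosen with earlier results of these data known.

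All 9 members were named, with the peak of highest −log10 p at the start or in the window, and peaks shared by all 4 lists. Other genes were named if called in the same direction in at least 2 assays. Alternatives were other windows, start distances, q limits, equal list sizes, peak midpoints, every summit, merged regions and leaving out the longest gene.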

Additional observations from a re-analysis of the deposited data

Results flagged for a closer look

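At 4 combinations of gene and mark, the comparison of an injury with its control went one way after sciatic axotomy and the other way after dorsal column axotomy, and the gene was called in both. These differences between the injuries were not tested, since each value comes from 1 pooled list. Trpv1 had 3 more H3K27ac peaks in SNA than in Sham, and DCA minus Lam was −3. Trpm3 had 37 more in SNA than in Sham, and DCA minus Lam was −19. Piezo2 had 16 more in SNA than in Sham, and DCA minus Lam was −9. With equal list sizes the opposite direction after DCA was lost for Trpv1, with 3 H3K27ac peaks in DCA and 3 in Lam. It was also lost for Piezo2, with 10 and 9. Trpm3 kept opposite directions, with 31 in SNA against 24 in Sham and 19 in DCA against 27 in Lam. Neither difference at Trpm3 was then large enough for a call. Over all genes the H3K27ac ratio also had opposite signs, 0.78 and −0.48 on the log2 scale. For H3K27me3, SNA minus Sham was −3 peaks at Trpa1 and DCA minus Lam was 4, and none of these peaks had a q of 0.05 or less. At all 4 combinations Lam was also called different from Sham. The H3K27ac peaks of Sham, SNA, Lam and DCA numbered 2, 5, 7 and 4 at Trpv1 and 24, 61, 39 and 20 at Trpm3. At Piezo2 they numbered 6, 22, 19 and 10, and the H3K27me3 peaks of Trpa1 7, 4, 2 and 6. The share of all genes called in opposite ways after the injuries is not given here.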

How the results depend on the processing

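Of the 93 recomputed ratios of member peak numbers, 78 stayed within the interval of the reported value. The sign changed in 10, of which 7 were changes of reported ratios between 0.02 and 0.06, all within their intervals. The other 3 came with equal list sizes, −0.03 for H3K9ac and 0.06 for H3K27me3 in DCA over Lam and −0.28 for H3K27me3 in Lam over Sham. That setting also gave 0.19 for H3K9ac and 0.27 for H3K27ac in SNA over Sham, −0.28 for H3K27ac in DCA over Lam, and 0.21 for H3K27ac in Lam over Sham. Limiting peaks to a −log10 q of 5 or more gave 2, 2.84 and 2.58 for H3K9ac in SNA over Sham, DCA over Lam and Lam over Sham, 0.56 and −2 for H3K27ac in SNA over Sham and DCA over Lam, and 1.13 and 0.42 for ATAC in SNA over Sham and Lam over Sham. A q of at most 0.05 gave 1.49 for H3K9ac in SNA over Sham. Members with a start peak in all 4 lists numbered 3 for H3K9ac and 2 for H3K27ac within 2.5 kb. When the peak had to cover the start they numbered 1 for H3K27me3 and 3 for ATAC. With a −log10 q of at least 5 they numbered 0 for H3K9ac, 0 for H3K27me3 and 2 for ATAC, with a q of at most 0.05 they numbered 0 for H3K9ac and 0 for H3K27me3, and with equal list sizes 1 for H3K27me3. Merging peaks up to 1 kb apart raised the share of regions in all 4 lists to 28.9% for H3K9ac, 17.7% for H3K27ac and 24.2% for ATAC. A −log10 q of at least 5 gave 0% for H3K9ac, 4.17% for H3K27ac and 14.9% for ATAC, and a q of at most 0.05 gave 9.7% for H3K9ac. Neither q limit left an H3K27me3 peak at a member, so those ratios and shares have no value. The cause of these moves was not tested. Reads per sample are unknown, and the scaled H3K9ac background pile-up and its scale factor differed between lists. No paired analysis was possible because each list pools the replicates of a surgery.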

Other observations

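The genes whose peak numbers over the 16 lists followed a member most closely, were sought among 16811 genes. Counts were put on a log2 scale after adding 1 and dividing by the list's size. The points share libraries and depth, so these Pearson correlations are descriptions. For Trpm8 they were Tenm4 and Nrg1 at 0.98 and Etl4 at 0.97, and for Piezo2 they were Wdfy3 and Kif16b at 0.96 and Ank2 at 0.94. For Trpm3 they were Col28a1 at 0.95, Me3 at 0.94 and Sorcs1 at 0.93, and for Trpv1 they were P2ry6, Ptpn14 and Podxl at 0.94. For Trpa1 they were St8sia4 and Gm765 at 0.95 and Gdf6 at 0.94. For Trpv4 they were Fam207a, Agap1 and Pitpnm2 at 0.98, for Piezo1 Ttc21a and Icam5 at 0.97 and Llgl2 at 0.96, and for Trpv2 Depdc5 and Dnmt1 at 0.95 and Acly at 0.94. Trpm2 had the least close matches, Neurl1b at 0.83, Rnf166 at 0.82 and Sctr at 0.81.

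Mir204, a microRNA gene inside Trpm3, had no peak of any of the 16 lists over its hairpin. The nearest were an H3K27ac peak of Lam at 2.55 kb and H3K9ac peaks of DCA at 3.76 kb and Sham at 3.83 kb. The nearest ATAC peak in any list was 19.1 kb away.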
